A study of Mus musculus with 3 samples.

Results

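The 7 genes described here encode the core of MHC class II antigen presentation in the mouse. They are H2-Aa, H2-Ab1 and H2-Eb1 (the peptide-binding chains), Cd74 (the invariant chain), H2-DMa and H2-DMb1 (the peptide-exchange factor) and Ciita (the class II transactivator). They were chosen by symbol, with earlier results of these data known, and all 7 stood among the 21983 genes of the deposited count table. RNA was sequenced from the intestine of mice labelled WT, with 1 library per group. Pups of the PCI34051+NEC group underwent a model of necrotizing enterocolitis (NEC), a disease in which the bowel of newborns becomes inflamed and dies, and were fed PCI34051, an inhibitor selective for the histone deacetylase HDAC8, at 10 mg/kg per day for 5 days. Pups of the NEC group underwent that model with PBS. In the model, pups received 40 µl of 33% formula every 4 h for 96 h, with hypoxia (99.9% nitrogen, 100 s) followed by cold (4 °C, 10 min) every 12 h. Control pups were fed by their dam and given PBS, with neither hypoxia nor cold. All groups were sampled at 96 h, and the labels used here give no age, strain or sex, nor how many pups gave each library. Formula, hypoxia and cold went together in the model, so their parts cannot be told apart.

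Class II molecules show peptides from engulfed proteins to CD4 T cells. Their chains pair in the endoplasmic reticulum with the invariant chain, which blocks the peptide groove and steers the complex to endosomes. There proteases such as cathepsin S trim it down to a short fragment, and the DM heterodimer exchanges that fragment for an antigenic peptide. Expression is held in dendritic cells, B cells and some macrophages, where CIITA docks on RFX, CREB and NF-Y factors bound to the class II promoters. Interferon gamma can switch CIITA on in other cells, among them the intestinal epithelium.

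The libraries held 16497580 (PCI34051+NEC), 10650638 (NEC) and 15076413 (control) counts. With 1 library per group there was no replicate check and no test, and the values hold for the libraries, not for the conditions in general. Levels are TMM-normalised CPM, counts scaled by library size. Log2 folds were taken after adding 1 to the CPM, and a gene counted as measured at 1 CPM or more in either library of a comparison. Plain ratios of CPM carry 95% exact conditional binomial intervals, which cover counting error only. The table column taken as PCI34051+NEC differs by some letters from the label of that sample, and every PCI34051+NEC value rests on that match. The epithelial genes of the labelled tissue were present in all libraries, with Epcam at 2797 CPM in PCI34051+NEC, 404 CPM in NEC and 2731 CPM in control. Of 12 epithelial markers, 4 were at least 2-fold higher in NEC than in control, led by Krt19 (log2 fold 3.53), and 6 were lower. The NEC library stood apart. Mitochondrially encoded genes took 3.73% of counts in PCI34051+NEC, 32.4% in NEC and 4.88% in control, and 12 smooth muscle genes summed to 1868, 13970 and 2093 CPM in that order.

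The peptide-binding chains were lowest in the NEC library, intermediate in the PCI34051+NEC library and highest in the control. H2-Aa, the alpha chain of I-A (ENSMUSG00000036594, chromosome 17, 34282744 to 34287823, minus strand, mm10), had 176 counts (11.6 CPM) in PCI34051+NEC, 28 (2.56 CPM) in NEC and 841 (52.9 CPM) in control. H2-Ab1, the beta chain of I-A (ENSMUSG00000073421, chromosome 17, 34257689 to 34269419, plus strand), had 182 counts (12.0 CPM) in PCI34051+NEC, 33 (3.01 CPM) in NEC and 995 (62.6 CPM) in control. H2-Eb1, the beta chain of I-E (ENSMUSG00000060586, chromosome 17, 34305867 to 34316674, plus strand), had 179 counts (11.8 CPM) in PCI34051+NEC, 40 (3.65 CPM) in NEC and 930 (58.5 CPM) in control. The 3 chains thus followed one order. In bulk tissue, fewer cells that carry class II molecules and less class II RNA per cell cannot be told apart.

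Against control, the NEC library was 20.7-fold lower for H2-Aa (interval 14.2 to 31.3), 20.8-fold lower for H2-Ab1 (14.7 to 30.3) and 16.0-fold lower for H2-Eb1 (11.7 to 22.6). The PCI34051+NEC library was higher than the NEC library by 4.52-fold for H2-Aa (3.02 to 7.0), 3.97-fold for H2-Ab1 (2.73 to 5.94) and 3.22-fold for H2-Eb1 (2.27 to 4.66). It nevertheless lay below control, by 4.58-fold for H2-Aa (3.89 to 5.42), 5.24-fold for H2-Ab1 (4.47 to 6.17) and 4.98-fold for H2-Eb1 (4.24 to 5.87). Summed over the 3 chains, PCI34051+NEC held 0.203 of the control level (0.184 to 0.222), and NEC held 0.0530 of it (0.0430 to 0.0647). All these intervals lie beyond a 2-fold difference.

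Cd74, whose product chaperones every class II dimer, was the most abundant of the 7 genes. It lies on chromosome 18 (ENSMUSG00000024610, 60803848 to 60812652, plus strand), away from the class II region. It had 562 counts (36.9 CPM) in PCI34051+NEC, 104 (9.50 CPM) in NEC and 2502 (157 CPM) in control. NEC was 16.6-fold lower than control (13.6 to 20.4), PCI34051+NEC was 3.89-fold higher than NEC (3.15 to 4.84), and PCI34051+NEC was 4.26-fold lower than control (3.89 to 4.68). These ratios lie close to those of the peptide-binding chains.

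The DM genes, whose products form 1 heterodimer, did not follow each other. H2-DMa (ENSMUSG00000037649, chromosome 17, 34119541 to 34139101, plus strand) had 72 counts (4.73 CPM) in PCI34051+NEC, 66 (6.03 CPM) in NEC and 159 (10.0 CPM) in control. It was 1.66-fold lower in NEC than in control (1.24 to 2.25), and the difference between PCI34051+NEC and NEC, a ratio of 0.785 (0.554 to 1.11), was within counting error. H2-DMb1 (ENSMUSG00000079547, chromosome 17, 34153072 to 34160230, plus strand) had 27 counts (1.77 CPM) in PCI34051+NEC, 0 in NEC and 67 (4.22 CPM) in control. A count of 0 in the NEC library allows a level of up to 0.274 CPM, taking 3 counts per library as the floor. Against that floor H2-DMb1 was at least 15.4-fold lower in NEC than in control, and at least 6.47-fold higher in PCI34051+NEC than in NEC.

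Both DM values carry a counting limit. Of the annotated exon length of H2-DMa, 10.4% (360 of 3448 bases) overlaps exons of Brd2 on the opposite strand, and Brd2 had 2329 counts in PCI34051+NEC, 1569 in NEC and 2141 in control. No source used here gives the strand setting of the counting, and without strand the reads of both genes cannot be told apart. The part of this overlap in the H2-DMa values was not tested. H2-DMb1 shares 22.7% of its 50-base and 4.71% of its 150-base transcript windows with its neighbour H2-DMb2, and reads from shared windows cannot be placed. None of the other members shared such a window with any of the 11 class II genes compared.

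Ciita, the transactivator on which the other 6 genes depend (ENSMUSG00000022504, chromosome 16, 10480059 to 10528418, plus strand), had 12 counts (0.788 CPM) in PCI34051+NEC, 17 (1.55 CPM) in NEC and 108 (6.80 CPM) in control. NEC was 4.38-fold lower than control (2.61 to 7.79), and PCI34051+NEC was 8.62-fold lower than control (4.74 to 17.2). Unlike the chains and Cd74, Ciita was not higher in PCI34051+NEC than in NEC. Its ratio there was 0.508, with an interval of 0.221 to 1.13 that includes no difference. Exons of Dexi on the opposite strand overlap 3.45% of the exon length of Ciita, and Dexi had 150 counts in PCI34051+NEC, 242 in NEC and 227 in control.

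**Figure D1:**
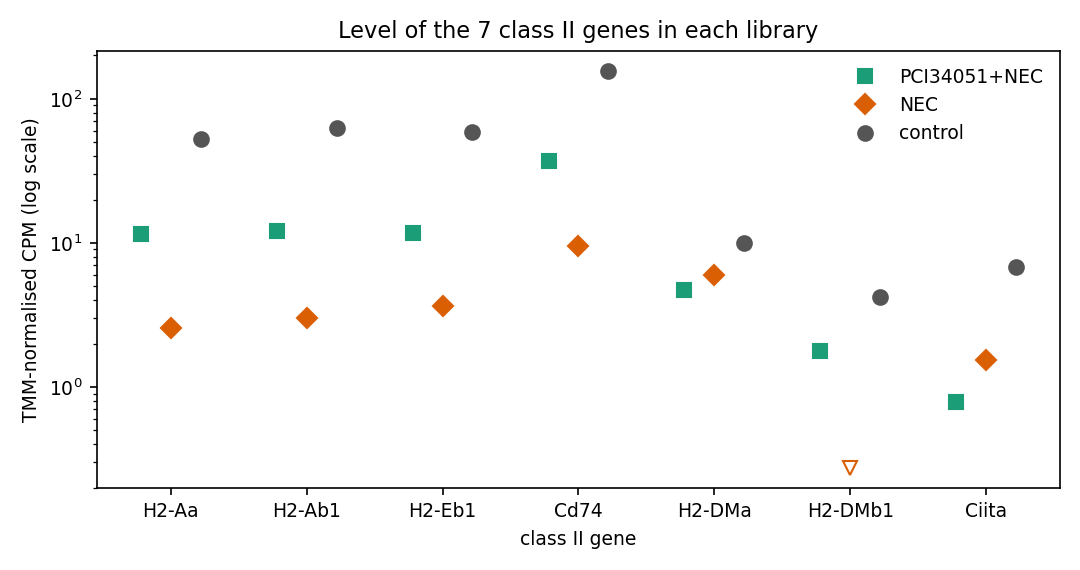
The TMM-normalised level of each of the 7 class II genes (log axis, CPM) in the PCI34051+NEC, NEC and control libraries, 1 point per library. The open triangle marks H2-DMb1 in NEC, at 0 counts, drawn at the floor of 0.274 CPM. The peptide-binding chains, Cd74 and H2-DMb1 were lowest in NEC, whereas H2-DMa and Ciita had their lowest points in PCI34051+NEC, within counting error of NEC.

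Counted over the 7 genes, 6 lay 2-fold or more below control in NEC, and none lay 2-fold above it, the exception being H2-DMa. Their median log2 fold was -3.68. Among all 14627 measured genes 47.1% were 2-fold apart, with 22.9% lower and 24.2% higher in NEC, and the median was -0.03. Of these, 35 had a lower fold than H2-Ab1, whose log2 fold was -3.99. H2-Aa and Cd74 were at -3.92, H2-Eb1 was at -3.68, H2-DMb1 at -2.38, Ciita at -1.61 and H2-DMa at -0.65.

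Between PCI34051+NEC and NEC, 5 of the 7 genes were 2-fold or more above NEC in PCI34051+NEC, and none was 2-fold below it. The median of their log2 folds was 1.47. Across all 14410 measured genes 50.6% were 2-fold apart, with 25.0% higher and 25.6% lower in PCI34051+NEC, and the median was 0.01. The folds ran up to 1.85 for Cd74 and 1.82 for H2-Aa, and 91.9% of all genes had a lower fold than Cd74. H2-DMa (-0.29) and Ciita (-0.51) were the exceptions. Both this comparison and that of NEC with control use the NEC library, so they are tied together.

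Between PCI34051+NEC and control, 5 of the 7 genes lay 2-fold or more below control and none lay 2-fold above it. The median of their log2 folds was -2.10. Among all 13652 measured genes 13.1% were 2-fold apart, with 6.55% lower and 6.55% higher in PCI34051+NEC, and the median was 0.00. H2-DMa (-0.94) and H2-DMb1 (-0.91) stayed inside 2-fold on this scale. Their plain ratios were 0.473 (0.353 to 0.628) and 0.421 (0.259 to 0.667), with intervals on both sides of a 2-fold difference. For H2-Ab1, at -2.30, 65 genes had a lower fold.

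**Figure D2:**
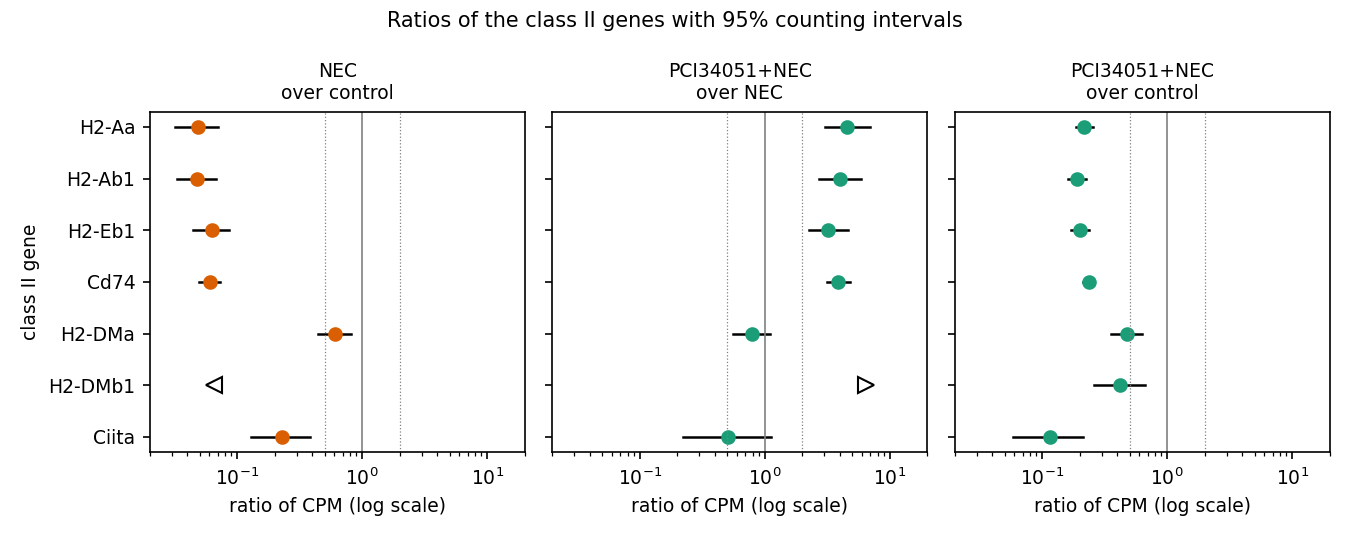
Plain ratios of CPM (log axis) for the 7 class II genes in the 3 comparisons, with 95% exact conditional binomial intervals as lines. The solid vertical line marks no difference and the dotted lines mark 2-fold. Open triangles place H2-DMb1, which had 0 counts in NEC, by the floor of 3 counts, without an interval. H2-Aa, H2-Ab1, H2-Eb1 and Cd74 lie beyond 2-fold in every panel, and the interval of Ciita in PCI34051+NEC over NEC crosses 1.

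Ratios taken within a library do not depend on the scaling between libraries, and by them the chains and the invariant chain kept near-equal proportions. Cd74 had 1.05 counts per count of the 3 peptide-binding chains in PCI34051+NEC (0.928 to 1.18), 1.03 in NEC (0.775 to 1.37) and 0.905 in control (0.857 to 0.955). H2-Ab1 made up 33.9% of the 3 chains in PCI34051+NEC (29.9 to 38.1), 32.7% in NEC (23.7 to 42.7) and 36.0% in control (34.2 to 37.8, exact binomial intervals). H2-DMa, H2-DMb1 and Ciita did not keep theirs. H2-DMa had 0.134 counts per chain count in PCI34051+NEC (0.103 to 0.172), 0.653 in NEC (0.472 to 0.900) and 0.0575 in control (0.0487 to 0.0675). H2-DMb1 had 0.0503 in PCI34051+NEC (0.0328 to 0.0740), 0 in NEC (up to 0.0372) and 0.0242 in control (0.0187 to 0.0309), so the PCI34051+NEC and control intervals lay apart. Ciita had 0.0223 in PCI34051+NEC (0.0115 to 0.0394), 0.168 in NEC (0.0944 to 0.283) and 0.0390 in control (0.0319 to 0.0473).

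Per kb of merged exon length, Cd74 led in all libraries, at 22 CPM per kb in PCI34051+NEC, 5.66 in NEC and 93.8 in control. H2-Eb1 came next, with 6.05 in PCI34051+NEC, 1.88 in NEC and 30.1 in control. H2-DMa was level with it in the NEC library alone, at 1.37 in PCI34051+NEC, 1.75 in NEC and 2.90 in control. Ciita was lowest in PCI34051+NEC (0.0827) and in control (0.713). In NEC it stood at 0.163 CPM per kb, above H2-DMb1 at 0 counts.

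The remaining class II chains were almost confined to the control library. H2-Ob, the beta chain of the DO heterodimer, which restrains DM in B cells, had 0 counts in PCI34051+NEC, 0 in NEC and 104 (6.54 CPM) in control. That was at least 33.2-fold lower in PCI34051+NEC and at least 23.9-fold lower in NEC than in control. H2-Oa, its alpha chain partner, had 1, 5 and 40 counts in PCI34051+NEC, NEC and control. H2-DMb2, a second DM beta chain, had 1, 0 and 57, and H2-Eb2 had 0, 0 and 25. All 4 were at least 2-fold lower than control in either model library, and none reached 1 CPM in PCI34051+NEC or in NEC. These 4 genes summed to 0.131 CPM in PCI34051+NEC, 0.457 CPM in NEC and 14.2 CPM in control.

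Genes for the factors that bind class II promoters differed by less than 2-fold between the libraries. Of the 7 on the list, 6 were measured and none was 2-fold apart in any of the 3 comparisons. Their median log2 folds were 0.16 for NEC over control, -0.24 for PCI34051+NEC over NEC and -0.03 for PCI34051+NEC over control. Rfx5, the large subunit of RFX, was at 13.9 CPM in PCI34051+NEC, 13.6 CPM in NEC and 14.3 CPM in control. Nfyb, a subunit of NF-Y, was at 13.3 CPM in PCI34051+NEC, 22.1 CPM in NEC and 11.8 CPM in control, 1.88-fold higher in NEC than in control (1.55 to 2.29). Rfxank, a further RFX subunit, was 1.80-fold lower in PCI34051+NEC than in NEC (1.47 to 2.20). Nfya, a subunit of NF-Y that most cells use, was listed at 0 in all 3 libraries.

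Enzymes that degrade the invariant chain and antigens were lowest in the NEC library. NEC lay 2-fold or more below control for all 7 measured of 9 listed (median log2 fold -3.19), and all 7 were at least 2-fold higher in PCI34051+NEC than in NEC (2.78). Between PCI34051+NEC and control the median was -0.16, with 2 lower, Ctsl (-1.41) and Ctsb (-1.05). Ctss, cathepsin S, which makes the last cuts in the invariant chain, was at 534 CPM in PCI34051+NEC, 63.4 CPM in NEC and 585 CPM in control. Legumain (Lgmn), an asparaginyl endopeptidase, was at 8183 CPM in PCI34051+NEC, 1081 CPM in NEC and 11800 CPM in control. The 12 epithelial markers, from cells that also carry lysosomal proteases in sucklings, summed to 7624 CPM in PCI34051+NEC, 3457 CPM in NEC and 7334 CPM in control, and their part in these values was not tested. Ctss was 1.10-fold lower in PCI34051+NEC than in control (1.06 to 1.13), against 4.26-fold for Cd74, the substrate of its product.

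On the interferon gamma axis, Ifng itself was at 0 counts in all 3 libraries, which allows up to 0.197 CPM in PCI34051+NEC, 0.274 in NEC and 0.189 in control. Socs1, a feedback inhibitor, was at 1.05 CPM in PCI34051+NEC, 1.19 CPM in NEC and 5.29 CPM in control. Its pattern was that of Ciita, low in both model libraries. Ifngr1, the ligand-binding receptor chain, was instead highest in PCI34051+NEC, at 368 CPM, with 101 CPM in NEC and 123 CPM in control. Of 8 measured genes of the axis, 4 were at least 2-fold lower in NEC than in control, 6 were higher in PCI34051+NEC than in NEC, and 2 were higher and 2 lower in PCI34051+NEC than in control.

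Many interferon-inducible GTPase genes were lower than control in PCI34051+NEC. Of 10 measured, 8 were at least 2-fold lower in PCI34051+NEC than in control (median log2 fold -1.30), and 4 were in NEC against control (-0.51). The difference between these counts was not tested. Gbp7, a guanylate-binding protein gene, was at 15.4 CPM in PCI34051+NEC, 7.76 CPM in NEC and 37.1 CPM in control. Irgm2, an immunity-related GTPase gene, had 55 counts in PCI34051+NEC, 27 in NEC and 175 in control. Between PCI34051+NEC and NEC the list leaned the other way, at a median log2 fold of -0.49. None of the 10 lay 2-fold above NEC, and 3 lay 2-fold below it, namely Igtp (-2.37), Gbp3 (-1.58) and Irgm1 (-1.21). Across all measured genes 25.6% lay 2-fold below NEC in that comparison and 25.0% above it. For the other lists too, the shares of all measured genes given above are the comparison. No count of a list was tested against them.

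Most measured genes of the MHC class I pathway were lower in NEC than in control, and some of them were low in PCI34051+NEC too. NEC lay 2-fold or more below control for 11 of 16 (median log2 fold -2.14). In PCI34051+NEC against control the median was -0.62, with 5 lower. H2-D1, a classical heavy chain, was at 1442 CPM in PCI34051+NEC, 230 CPM in NEC and 1849 CPM in control. B2m, its light chain, was at 466 CPM in PCI34051+NEC, 93.6 CPM in NEC and 631 CPM in control. Psmb8, a subunit of the immunoproteasome, was at 4.93 CPM in PCI34051+NEC, 3.38 CPM in NEC and 29.1 CPM in control. Tap1, a peptide transporter subunit, was at 12.2, 6.21 and 46.8 CPM in that order. In PCI34051+NEC, Psmb8 (5.91-fold, 4.62 to 7.65) and Tap1 (3.85-fold, 3.27 to 4.55) were thus far below control, as the class II chains were, while H2-D1 was 1.28-fold lower (1.26 to 1.31). Class I heavy chain genes have near-identical copies, whose counts are uncertain.

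**Figure D3:**
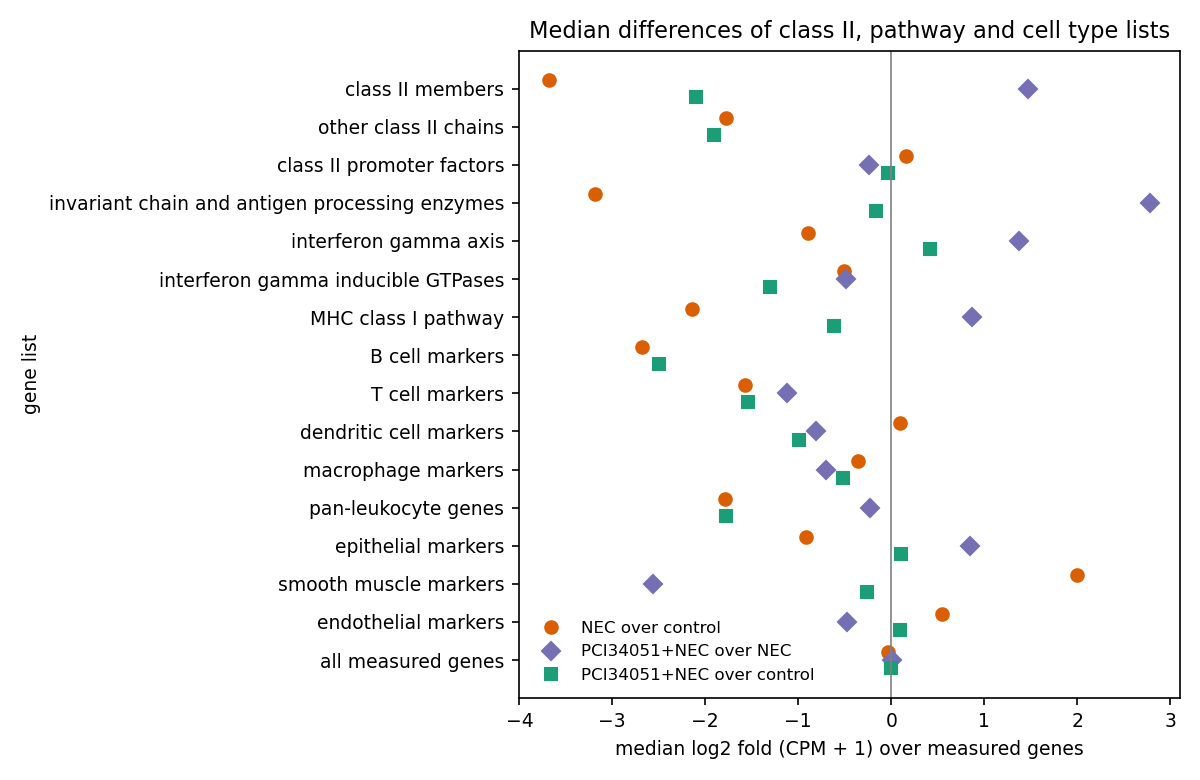
Median log2 fold on the log2(CPM + 1) scale over the measured genes of each list, for NEC over control, PCI34051+NEC over NEC and PCI34051+NEC over control. Lists with no gene measured in a comparison have no point there. The class II members were at -3.68, 1.47 and -2.10, and all measured genes at -0.03, 0.01 and 0.00.

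Markers of the cells that carry class II molecules did not move as one. B cell markers were nearly absent outside the control. All 12 listed in the table summed to 27 counts (1.77 CPM) in PCI34051+NEC, 24 (2.19 CPM) in NEC and 1158 (72.9 CPM) in control, and all 11 measured were at least 2-fold lower than control in either model library. Cd79b, a signalling chain of the B cell receptor, had 6 counts in PCI34051+NEC, 0 in NEC and 200 in control. Spib was at 0 counts in PCI34051+NEC and in NEC, Pax5 at 0 in PCI34051+NEC, and Ms4a1 at 0 in NEC. The peptide-binding chains had 537 counts in PCI34051+NEC, 101 in NEC and 2766 in control, which gave 19.9 chain counts per B cell marker count in PCI34051+NEC (13.5 to 30.5), 4.21 in NEC (2.68 to 6.87) and 2.39 in control (2.23 to 2.56).

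Pan-leukocyte genes were lower than control in both model libraries. Of 12 measured, 10 were at least 2-fold lower in NEC than in control (median log2 fold -1.79) and 11 were in PCI34051+NEC (-1.78). Ptprc, which encodes CD45, had 49 counts (3.22 CPM) in PCI34051+NEC, 3 (0.274 CPM) in NEC and 342 (21.5 CPM) in control. For Ptprc, PCI34051+NEC stood 11.7-fold above NEC (3.79 to 58.9) and 6.68-fold below control (4.94 to 9.21). The list as a whole did not follow Ptprc between PCI34051+NEC and NEC: of 11 measured, 2 were at least 2-fold higher, Ptprc and Lcp1, and 2 lower, Coro1a (-1.79) and Vav1 (-1.53), with a median log2 fold of -0.23. Per Ptprc count there were 11 chain counts in PCI34051+NEC (8.17 to 15.0), 33.7 in NEC (11.2 to 166) and 8.09 in control (7.23 to 9.08). Per count of the whole list there were 0.225 in PCI34051+NEC (0.204 to 0.247), 0.113 in NEC (0.0909 to 0.139) and 0.398 in control (0.381 to 0.416). Lcp1 gave most of the summed level in PCI34051+NEC (123 of 157 CPM) and in control (256 of 437 CPM), but not in NEC (22.6 of 81.7 CPM). Without it, an alternative chosen after its values were seen, the ratio was 1.03 in PCI34051+NEC (0.915 to 1.17), 0.156 in NEC (0.125 to 0.192) and 0.961 in control (0.912 to 1.01). By that ratio, PCI34051+NEC and control could not be distinguished within counting error, and the NEC value lay below both. Ptprc alone gives the opposite order for NEC, but on 3 counts.

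Macrophage markers went both ways in every comparison, and dendritic cell markers did so in NEC against control. There, of 12 dendritic cell markers measured, 1 was at least 2-fold higher and 3 were lower (median log2 fold 0.09). In PCI34051+NEC, 9 were measured in each comparison and 0 were 2-fold higher. Of these, 4 were 2-fold lower than control (-0.99) and 3 were 2-fold lower than NEC (-0.81). The 14 dendritic cell markers summed to 56.0 CPM in PCI34051+NEC, 139 CPM in NEC and 113 CPM in control, with Cd209a at 0 in all libraries and Siglech at 0 in PCI34051+NEC and in NEC. Itgax, which encodes CD11c, was at 2.17 CPM in PCI34051+NEC, 1.00 CPM in NEC and 6.42 CPM in control. The transcription factor gene Batf3 was instead highest in NEC, at 0.854, 21.6 and 3.02 CPM in that order. There were 0.630 chain counts per dendritic cell marker count in PCI34051+NEC (0.564 to 0.702), 0.0665 in NEC (0.0538 to 0.0814) and 1.54 in control (1.45 to 1.64). Irf8, Sirpa and Fscn1 gave most of these marker counts. They had 423, 158 and 162 of 853 in PCI34051+NEC, and 476, 320 and 392 of 1518 in NEC. In control they had 848, 274 and 351 of 1791. Itgax had 33, 11 and 102 counts in PCI34051+NEC, NEC and control, and a ratio to it alone was not taken. The part of other cells in these marker counts was not tested.

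The 14 macrophage markers summed to 486 CPM in PCI34051+NEC, 298 CPM in NEC and 949 CPM in control. Csf1r, the receptor for their growth factor, was at 160, 58.8 and 406 CPM in that order. Cd163, a haemoglobin scavenger receptor, was at 4.99 CPM in PCI34051+NEC, 24.5 CPM in NEC and 0.440 CPM in control. Per macrophage marker count there were 0.0726 chain counts in PCI34051+NEC (0.0664 to 0.0793), 0.0310 in NEC (0.0252 to 0.0378) and 0.183 in control (0.176 to 0.191). Of 12 T cell markers, 7 were at least 2-fold lower and 1 was higher in NEC than in control (median log2 fold -1.57). In PCI34051+NEC against control, 10 were lower and 0 higher (-1.54). Cd3d, Cd3g, Cd8a, Cd5 and Cd2 were at 0 counts in NEC, and Cd3d and Cd2 also in PCI34051+NEC. The list summed to 140 counts in PCI34051+NEC, 354 in NEC and 636 in control. Thy1, which cells other than T cells also express, gave 84 of these in PCI34051+NEC, 251 in NEC and 122 in control. The part of cell numbers in the class II values was not tested.

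**Figure D4:**
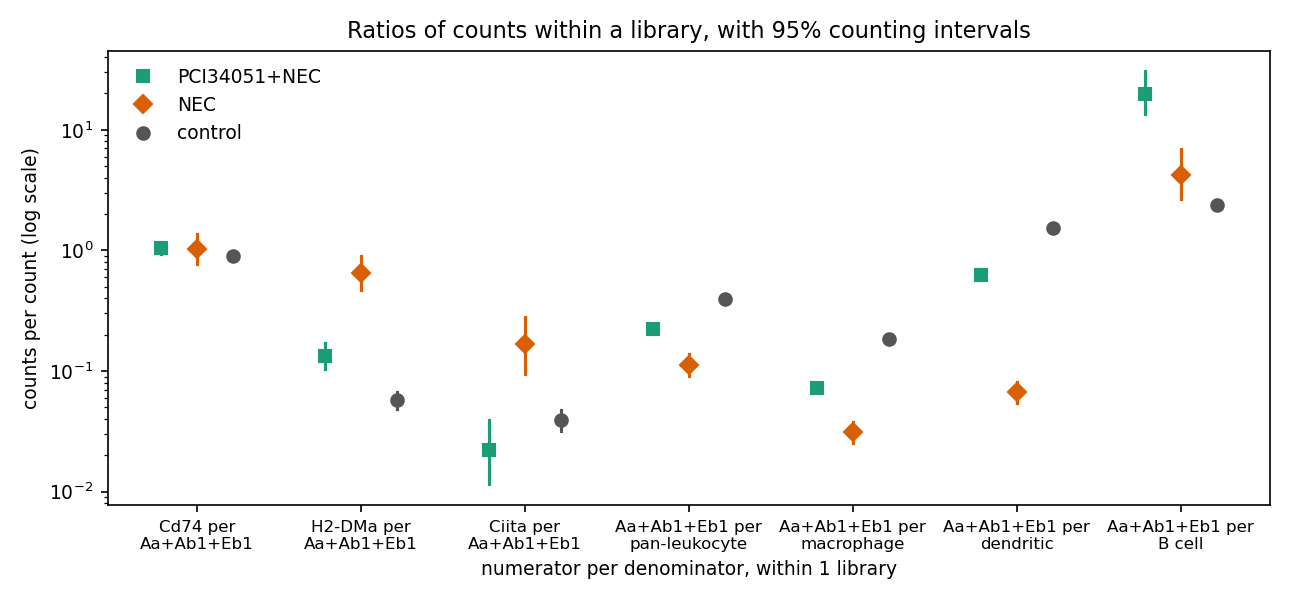
Ratios of counts within each library (log axis), with 95% exact conditional binomial intervals as vertical lines, shorter than the marker where counts are high. Aa+Ab1+Eb1 stands for the summed counts of H2-Aa, H2-Ab1 and H2-Eb1. Cd74 kept to 1.05, 1.03 and 0.905 counts per chain count in PCI34051+NEC, NEC and control, while H2-DMa and Ciita per chain count were highest in NEC.

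The region on chromosome 17 from 200 kb before to 200 kb after the class II genes (33892340 to 34541412, mm10) held 36 genes of the table, in which 9 class II genes span 249 kb. The other genes of the region were not lower as a group. Of 25 measured, 7 were 2-fold or more lower and 7 higher in NEC than in control, with a median log2 fold of 0.03, against 8 of 9 lower and a median of -2.38 for the class II genes. In PCI34051+NEC against control, 3 were lower and 3 higher. The 3 lower ones, Psmb9 (-2.21), Tap1 (-1.86) and Psmb8 (-2.35), lie between the DM and the H2-Ob genes. The 3 higher ones were the butyrophilin-like genes Btnl2 (1.34), Btnl1 (1.56) and Btnl4 (1.05), which lie beyond H2-Eb2. Col11a2, a collagen gene, had 37 counts in PCI34051+NEC, 313 in NEC and 36 in control, a log2 fold of 3.18 in NEC over control.

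**Figure D5:**
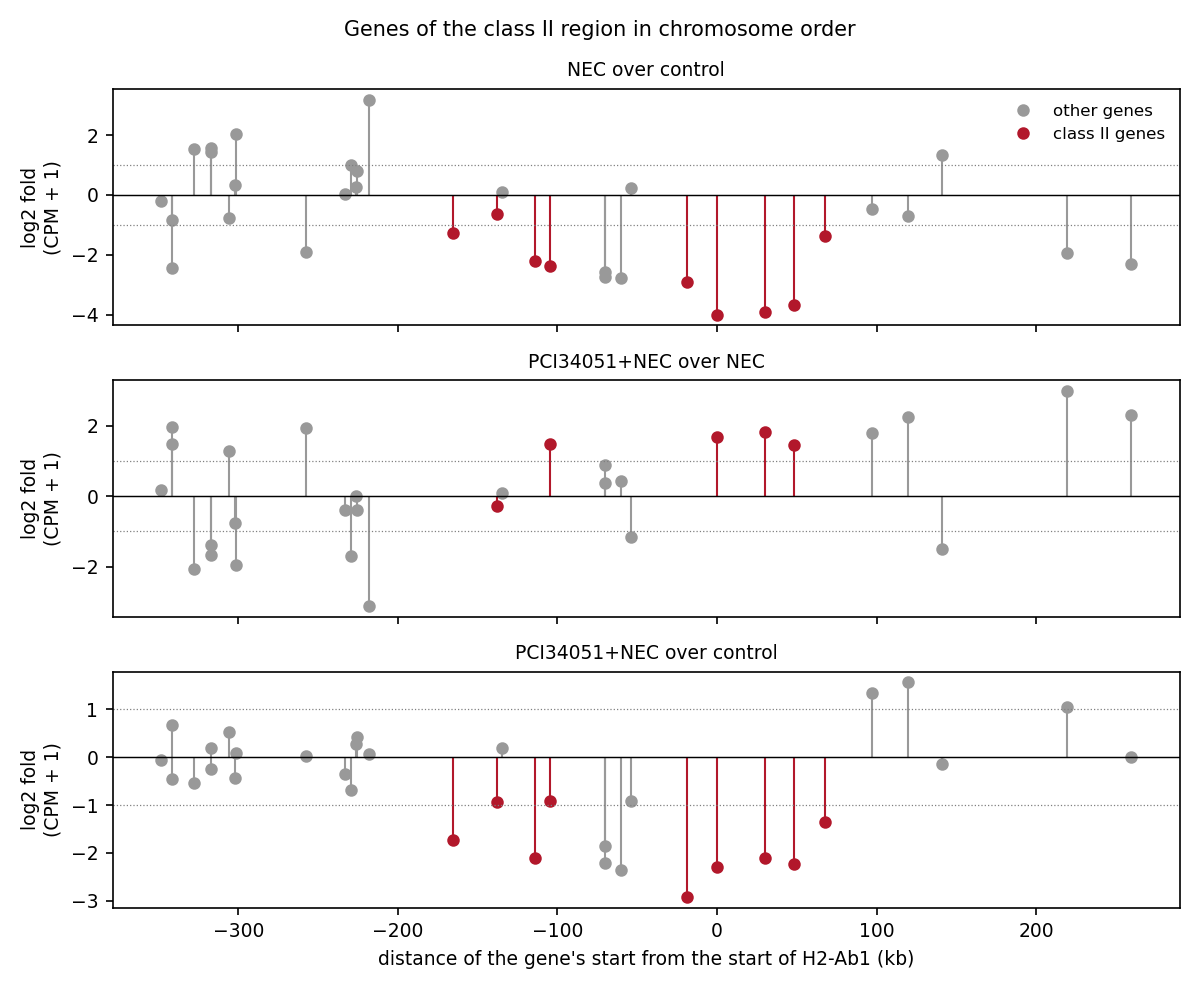
Log2 fold on the log2(CPM + 1) scale for each measured gene of the class II region, by the distance of its start from that of H2-Ab1 (kb), in the 3 comparisons. Class II genes are red and other genes grey, and dotted lines mark 2-fold. No class II gene lies above 0 in NEC over control or in PCI34051+NEC over control, whereas other genes lie on both sides.

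Promoters are shown because the chains moved together and because class II promoters are known for an X box, bound by RFX, and a Y box, bound by NF-Y. The RefSeq promoter table (GRCm38.p6, 250 bases before to 50 after a start) held 4 of the 7 members. The letters AGNNACNGA (the X box core), the full X box (the core with CCN before it and NG after it) and the Y box ATTGG were searched on both strands. The Y box thus includes CCAAT, and every X box holds a core. Of all 32851 promoters of that length, 0.411% held the X box, 17.7% the core and 37.4% the Y box. A core followed by a Y box at 10 to 30 bases, a spacing chosen after the hits were seen, stood in 0.639%. The H2-DMb1 promoter (chr17:34152941-34153240, plus strand) held the X box, starting 98 bases before the start, the Y box 61 bases before it, and a further core on the opposite strand at 163. That of H2-Eb1 (chr17:34305617-34305916, plus strand) held the core at 92 bases before the start and the Y box at 59 and, on the opposite strand, at 35. The H2-Aa promoter (chr17:34287774-34288073, minus strand) held the Y box at 48 bases before the start and no core. Capitals mark these letters, and each sequence is on the strand of its gene.
H2-DMb1: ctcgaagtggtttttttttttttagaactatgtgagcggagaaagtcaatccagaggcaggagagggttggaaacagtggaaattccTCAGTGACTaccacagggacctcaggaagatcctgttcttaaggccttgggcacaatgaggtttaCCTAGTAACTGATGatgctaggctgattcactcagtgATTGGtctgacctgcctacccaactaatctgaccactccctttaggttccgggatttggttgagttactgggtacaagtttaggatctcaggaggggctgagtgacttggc
H2-Eb1: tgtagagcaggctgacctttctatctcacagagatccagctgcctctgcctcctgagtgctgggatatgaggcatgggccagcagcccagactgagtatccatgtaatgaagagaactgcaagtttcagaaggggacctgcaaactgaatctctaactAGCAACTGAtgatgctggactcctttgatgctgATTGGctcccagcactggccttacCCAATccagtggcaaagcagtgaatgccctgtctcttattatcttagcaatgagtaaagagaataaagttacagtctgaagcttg
H2-Aa: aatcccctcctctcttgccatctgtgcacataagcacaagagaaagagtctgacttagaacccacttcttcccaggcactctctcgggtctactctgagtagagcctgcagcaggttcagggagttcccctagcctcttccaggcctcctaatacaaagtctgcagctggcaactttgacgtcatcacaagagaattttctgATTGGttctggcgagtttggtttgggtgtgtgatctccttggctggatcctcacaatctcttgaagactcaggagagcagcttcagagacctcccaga
Neither of the 2 starts listed for H2-DMa held the core in its window, and 1 of them held the Y box. The window without the Y box (34122582 to 34122881) covers the position 34122634, where Brd2 starts on the minus strand. Neither window covers the position 34119541, where the annotated H2-DMa gene starts, and other starts of H2-DMa were not searched. H2-Aa, with a log2 fold of -3.92 in NEC over control, also had no match to the core. A search for fixed letters misses an X box that differs from them, so a window without a match may still hold one. Whether matches go with the folds was not tested. Such a match is a description of letters, not of binding.

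Among the 10487 other protein-coding genes at 10 CPM or more in their highest library, the one nearest to the median class II profile was that of Fam198b. Likeness was the distance between the log2 folds over control in NEC and in PCI34051+NEC and the medians of the 7 members, over 3 libraries. Fam198b lay 0.0569 away, at 40.1 CPM in PCI34051+NEC, 13.0 CPM in NEC and 181 CPM in control. Next came Piwil2 (0.133), Abat (0.139), Ppef1 (0.190), Fndc5 (0.195), Tfpi2 (0.213), Egfl6 (0.222) and Sema7a (0.259). Abat, which encodes the enzyme that degrades the transmitter GABA, was at 44.1 CPM in PCI34051+NEC, 15.1 CPM in NEC and 187 CPM in control. None of these 8 genes stands on the lists of class II or leukocyte genes used here.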

How the data were processed

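Bulk RNA-seq of mouse intestine was analysed, 1 library per group. The raw counts per gene symbol came as 1 table that the authors deposited, on genome build mm10 per the submitters' processing notes, with 150-base paired-end reads per the labels' protocols. Aligner, annotation, strand setting and filters: not given in the sources used here. All 3 count columns were used, and the table held 0 rows that name no gene. Of 21983 symbols, 21926 matched GENCODE M21, the source of coordinates and lengths. Scaling used the TMM method of edgeR 4.0.16 under R 4.3.3, with factors of 0.923, 1.03 and 1.05 for PCI34051+NEC, NEC and control. Log2 folds are differences of log2(CPM + 1), a scale on which low genes appear closer together than they are. With 1 library per group no test was possible, and a 2-fold difference was counted. DESeq2 1.42.0 size factors were among the alternatives. Reads carry no molecular identifiers and PCR copies are not separate molecules: the intervals and floors reflect counting error alone. Folds and intervals were also computed on simulated data. The outcome is not given here, so no check of the values in these libraries rests on it. Other tools were Python 3.11.15, scipy 1.17.1, numpy 2.4.6, matplotlib 3.10.9 and pandas 2.3.3. The members and gene lists were chosen with earlier results of these data known. The text names the members, genes of the 4 closest pathway lists, up to 4 genes per other list by size of the NEC difference at 5 CPM or more, the 8 nearest profiles and region genes 2-fold apart. Pax5, Ms4a1, Siglech, Cd209a, Cd4, Igtp, Gbp3, Irgm1, Coro1a, Vav1, Irf8, Sirpa, Fscn1, Brd2, Dexi and the T cell markers at 0 were named after their values were seen. Some genes of the lists are not reported here by name.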

Additional observations from a re-analysis of the deposited data

How the results depend on the processing

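The counts of class II genes at least 2-fold apart stayed within 1.5 times under every alternative run, at 5 to 7 of 7 (5 of 6 with a minimum of 5 CPM) lower in NEC than in control, 4 or 5 higher in PCI34051+NEC than in NEC, and 5 to 7 lower in PCI34051+NEC than in control. H2-DMa and H2-DMb1 joined the last count with a pseudocount of 0.25, with total counts and at 1.5-fold. With a pseudocount of 4 the median for NEC over control was -3.03 in place of -3.68, and the log2 fold of H2-DMb1, at 0 counts in NEC, ranged from -4.16 (pseudocount 0.25) to -1.04. Of 192 folds of single members under alternatives 179 moved by less than a limit, 13 by more, and 0 changed sign among those called. The limit was the distance from the middle of the counting interval to its end on the log2 scale. H2-DMb1, at 0 counts in NEC, has no such distance in comparisons with NEC, so its own interval could not serve there. With the trend with GC content and length removed, Cd74 was at -4.21 for NEC over control. Over all genes, 894 were 2-fold lower in PCI34051+NEC than in control, 349 with a pseudocount of 4, and 2269 at 1.5-fold. No paired analysis was possible because each group has 1 library, and for the same reason no replicate could be left out. Values under about 20 counts, as for Ciita in both model libraries, have wide intervals.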

Other observations

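Of 7 partners of class II molecules and their costimulators on T cells, 2 were measured, Lag3 and Cd4. Lag3, an inhibitory receptor that binds class II molecules, was at 0.788 CPM in PCI34051+NEC, 22.4 CPM in NEC and 1.51 CPM in control, so it was highest where the class II chains were lowest. Cd4, the coreceptor, had 18 counts in PCI34051+NEC, 6 in NEC and 69 in control. Among 7 measured costimulatory and coinhibitory ligands, 3 were at least 2-fold lower and 1 was higher in NEC than in control. Cd83, a marker of mature dendritic cells, was at 7.36 CPM in PCI34051+NEC, 1.37 CPM in NEC and 6.17 CPM in control, 4.50-fold lower in NEC than in control (2.60 to 8.35). Icosl, the ligand of ICOS, was at 32.5 CPM in PCI34051+NEC, 18.6 CPM in NEC and 10.6 CPM in control. Cd40 was at 1.05, 5.66 and 2.01 CPM in that order. March8, a ubiquitin ligase that acts on class II molecules, was at 159 CPM in PCI34051+NEC, 50.6 CPM in NEC and 165 CPM in control.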
